A study of Mus musculus with 37 samples.

Results

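Ccr7, a chemokine receptor, and Ccl19, one of its ligands, were followed through RNA-seq of mouse myeloid cells that had met IL-10, LPS or both. They were taken as the entries of the deposited table named Ccr7 or Ccl19, which gave 2 genes of 6509, each with 1 transcript of the 16993 that carry a gene name. All cells came from mice of the strain C57Bl6cJ, and 5 cell types were used. Macrophages were the adherent cells of a thioglycollate-elicited peritoneal lavage, and neutrophils came from the bone marrow of pooled mice and were kept overnight in GM-CSF, a growth factor that matures them. Splenic dendritic cells (sDCs) were enriched from spleen with magnetic reagents, while mast cells and eosinophils were grown from bone marrow. Macrophages, neutrophils, sDCs and mast cells had 4 groups each: untreated, IL-10 (an anti-inflammatory cytokine, 100 ng/ml for 4 h), LPS (a bacterial endotoxin, 100 ng/ml for 4 h), and IL-10 for 4 h with LPS for the 4 h after it. Eosinophils had the untreated and LPS groups. Of 37 samples, 36 stood behind the 18 groups, 2 libraries each, and 1 sample of CD4+ T cells was not analysed here. Harvest times were not given group by group in the sources used here. If cells with LPS were harvested later than cells without it, LPS and the longer culture cannot be told apart.

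CCR7 is a G protein-coupled receptor that steers mature dendritic cells and naive T cells into lymph nodes and the T cell areas of the spleen, along gradients of CCL19 and CCL21. Dendritic cells are known to acquire it as they mature, together with costimulatory molecules such as CD40, CD80 and CD86. CCL19 is made by stromal cells of lymphoid tissue and by mature dendritic cells, and LPS and IL-10 are known to push dendritic cell maturation in opposite directions.

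The Ccr7 transcript (ENSMUST00000103134, gene ENSMUSG00000037944.8) lies on the minus strand of chromosome 11 at 99005510 to 99016391 of the mouse build NCBIM37 (mm9), the build of the authors' Ensembl annotation. It is the 1 annotated transcript of the gene, with 3 exons and 1978 bases, and no other gene overlaps it. None of its 1954 stretches of 25 bases occurs in another protein-coding gene's transcripts. The Ccl19 transcript (ENSMUST00000102957, gene ENSMUSG00000071005.5) lies on the minus strand of chromosome 4 at 42768057 to 42770109, within the span of 1 gene on the other strand. It has 4 exons and 745 bases and is 1 of 3 annotated transcripts. Of its 721 stretches of 25 bases, some also occur in the annotated genes Gm2023 and Gm2442. The gene that shares the most of them holds 696 (96.5%). Reads from such a near-identical copy cannot be told apart from Ccl19 reads over most of the transcript, so the Ccl19 values are uncertain in this respect.

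The promoter sequences used here had an entry for Ccl19 and none for Ccr7, so the Ccr7 promoter was not searched. The 250 bases before the Ccl19 start site are shown. Ccl19 was also the member that passed the 2-fold threshold with IL-10. The sequence is RefSeq's, from the later build GRCm38.p6 (chr4:42756366-42756615, minus strand), and the capitals mark a pair of GAAA letters with 2 bases between them, the core of the element that interferon regulatory factors bind.

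Ccl19: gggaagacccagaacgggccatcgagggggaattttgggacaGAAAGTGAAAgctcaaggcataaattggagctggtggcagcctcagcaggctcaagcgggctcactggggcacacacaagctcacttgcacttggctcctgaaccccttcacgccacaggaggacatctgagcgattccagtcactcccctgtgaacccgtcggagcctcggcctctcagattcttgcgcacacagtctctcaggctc

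Both strands were searched for 3 motifs. The interferon response motif, GAAA and GAAA with any 2 bases between, was found 1 time, as GAAAGTGAAA starting at -208 from the start site, and 2.98% of 32851 mouse promoters of the same length hold it. A kappaB-like motif, GGG and CC with any 5 bases between, was found 1 time, as GGGAAGACCC at -250, and 45.8% of promoters hold it. TTCNNNGAA, the palindrome bound by STAT factors (STAT3 is the factor that IL-10 activates), had 0 matches in this window and occurs in 7.02% of promoters. A match describes these letters and is not evidence of a bound factor.

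Values are the authors' GC-normalized tag counts, averaged by them over the 2 replicates of a group. With 1 mean per group there is no SD, no n and no test, the depth behind a value is unknown, and p-values cannot be given. Differences are on the scale of log2(value + 1), in genes that reached 10 in at least 1 group of the cell type. Differences of 2-fold or more were called, which is a rule of size and not a test.

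Ccr7 was high in sDCs and low in the other cells under every treatment. In sDCs its value was 185338 untreated, 185338 with IL-10, 140082.5 with LPS and 94827 with IL-10 and LPS. In neutrophils it was 228.5 untreated, 210.5 with IL-10, 1235.5 with LPS and 811.5 with both. In macrophages it was 38 untreated, 47 with IL-10, 214 with LPS and 218.5 with both. The lowest sDC group was 76.8 times the highest of the 14 other groups, which was LPS-treated neutrophils. The share of all genes with every sDC group above all other groups was not counted. Eosinophils had values of 16 untreated and 24 with LPS. Mast cells had 2.5 untreated, 4 with IL-10, 3 with LPS and 3.5 with both, below the threshold of 10 in every group, and were left out of the comparisons for this gene.

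Among untreated cells the order of Ccr7 was sDCs, neutrophils, macrophages, eosinophils and mast cells. The untreated sDC value is the highest the table can show, so its ratios to other cells are lower limits on this scale: 811.1 to neutrophils, 4877.3 to macrophages and 11583.6 to eosinophils. No ratio is given to mast cells, which were below the minimum. Since the spread between libraries is not in the table, it cannot be said which neighbours in this order differ beyond it. In bulk RNA, fewer expressing cells and less RNA per cell cannot be told apart. With LPS the deposited sDC value was 113.4 times that of neutrophils.

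**Figure D1:**
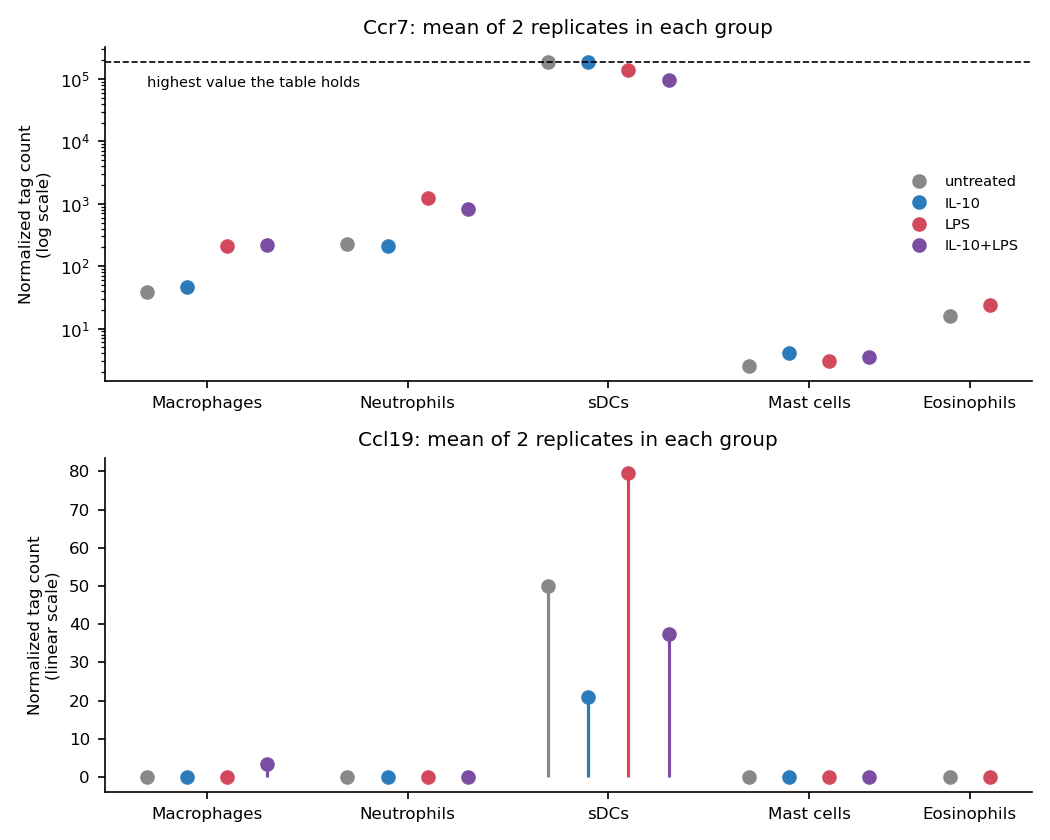
Deposited mean of Ccr7 (upper panel, log scale) and Ccl19 (lower panel, linear scale) as normalized tag count in each of 18 groups, coloured by treatment, with the highest value of the table as a dashed line. Ccr7 in sDCs lies between 94827 and 185338 while no other group passes 1235.5, and Ccl19 is above 3.5 only in the 4 sDC groups.

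Ccl19 had values above 0 in 5 of the 18 groups. In sDCs it was 50 untreated, 21 with IL-10, 79.5 with LPS and 37.5 with IL-10 and LPS. In macrophages with IL-10 and LPS it was 3.5. The other 13 groups were listed at 0, which included all groups of neutrophils, mast cells and eosinophils. The lowest sDC value was 6.0 times the macrophage value. Within sDCs the order ran from LPS through untreated and IL-10 with LPS to IL-10 alone, so each group with IL-10 was below its partner without IL-10 and each group with LPS was above its partner without LPS.

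The receptor and its ligand therefore had their high values in the same 4 groups but at very different levels. Per kilobase of transcript, Ccr7 in sDCs had values of 93699.7 untreated, 93699.7 with IL-10, 70820.3 with LPS and 47940.8 with both. Ccl19 per kilobase had values of 67.1, 28.2, 106.7 and 50.3 in the same order. The Ccr7 values are limited by the top of the scale, as described next, so no ratio between the genes is given.

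Ccr7 in sDCs sat at the ceiling of the scale. The value 185338 was the highest in all 18 columns of the table, and between 1 and 7 transcripts held it in a column. Untreated sDCs had 5 transcripts there and IL-10-treated sDCs had 7, Ccr7 among them in both. If no library passed this shared maximum, a mean at the ceiling places both libraries there, so the table could not show a difference between these 2 groups or a higher level in either.

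The values below the ceiling came in steps. Over all columns 42 values lay within 400 of 94827, the Ccr7 value with IL-10 and LPS, and 6 values in 6 columns were exactly 94827, each for a different gene: C3, Ccr7, Cd68, Lrp1, Mmp9 and Myh9. The Ccr7 value with LPS, 140082.5, is exactly the mean of 185338 and 94827, the value that 1 library at each would give. It occurred for C3 in another column as well, and 20 values lay within 200 of it. The ceiling is 1.95 times this next step, or 0.97 on the log2 scale. The sDC differences of Ccr7 between treatments thus equal distances between fixed steps of the scale, 0.40 for the LPS group and 0.97 for the group with both, and the amount of Ccr7 RNA behind them cannot be read from the table.

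**Figure D2:**
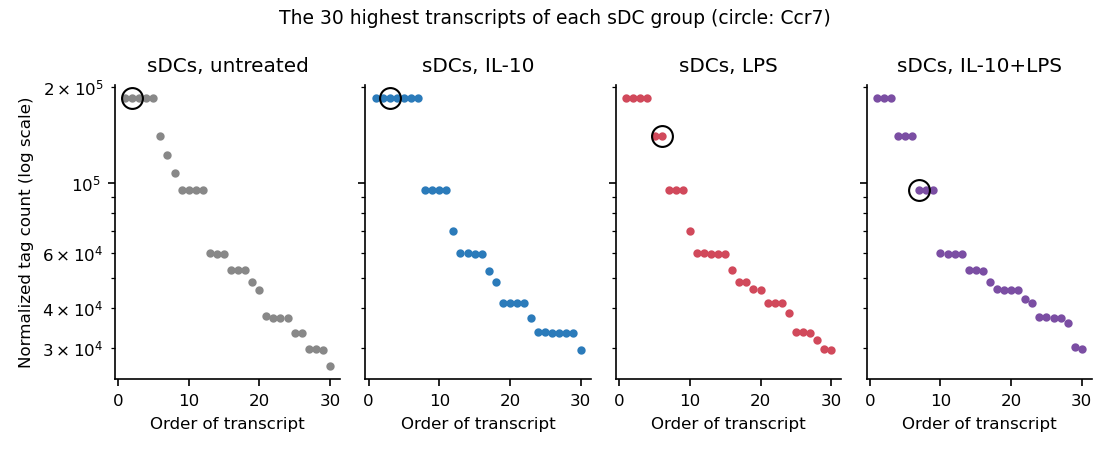
The 30 highest transcripts in each sDC group, by normalized tag count (log scale) against their order, with Ccr7 circled. Ccr7 lies at the ceiling of 185338 in the untreated and IL-10 groups, at 140082.5 with LPS and at 94827 with IL-10 and LPS, and other transcripts share these steps.

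LPS against untreated cells asks which genes the endotoxin changes in each cell type. Ccr7 rose with LPS in macrophages, by 2.46 on the log2 scale (5.51-fold), and in neutrophils, by 2.43 (5.39-fold). At least 2-fold rises were called in 12.7% of 6064 genes in macrophages and in 8.71% of 5949 in neutrophils. Ccr7 ranked 236 from the largest rise in macrophages and 164 in neutrophils. In eosinophils the difference was 0.56 (1.47-fold), not called, where 2.16% of 5559 genes rose, and its rank from the top was 222.

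In sDCs, Ccr7 with LPS was 0.40 lower on the log2 scale (1.32-fold), not called, with 11.5% of 6050 genes lowered at least 2-fold and a median over all genes of -0.14. Untreated sDCs were at the ceiling, from which no rise can appear, and the 0.40 is the distance from the ceiling to 140082.5. Ccl19 in sDCs was 0.66 higher (1.58-fold) with LPS, also not called, where 9.04% of genes rose, and it ranked 811 from the largest rise.

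IL-10 with LPS against LPS alone asks which LPS effects IL-10 alters. Ccl19 fell in sDCs by 1.06 on the log2 scale, 2.09-fold, at rank 103 from the largest fall. Falls of at least 2-fold were called in 2.08% of genes there and rises in 2.61%. With a pseudocount of 10 in place of 1 this fall was -0.91 and no longer called. Ccr7 passed the threshold in no cell type. In macrophages its values of 214 and 218.5 differed by 0.03, with 4.58% of genes lowered and 3.12% raised. In neutrophils Ccr7 was 0.61 lower (1.52-fold), with 3.87% of genes lowered and 3.06% raised, and it stayed above both groups without LPS. In sDCs it was 0.56 lower (1.48-fold), the distance from 140082.5 to 94827 described above.

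IL-10 alone against untreated cells shows the cytokine without the endotoxin. Ccl19 in sDCs fell from 50 to 21, by 1.21 on the log2 scale or 2.32-fold, where 0.826% of genes fell at least 2-fold. Its rank was 24 from the largest fall of 6050 genes. This call too was lost with a pseudocount of 10, at -0.95. Ccr7 was not called in any cell type. It differed by 0.30 in macrophages, where 2.34% of genes rose and 2.14% fell, and by -0.12 in neutrophils, where 1.26% rose and 0.908% fell. It was at the ceiling in both sDC groups, with 1.6% of genes raised.

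IL-10 with LPS against IL-10 alone gives the LPS change in cells that had IL-10 first and shares no group with LPS against untreated. Ccr7 again rose in macrophages, by 2.19 (4.57-fold), with 10.1% of genes raised and 12.6% lowered. It also rose in neutrophils, by 1.94 (3.84-fold), with 6.12% of genes raised and 5.68% lowered. In sDCs it was 0.97 lower (1.95-fold), not called, with 9.32% of genes lowered. Ccl19 in sDCs was 0.81 higher (1.75-fold), not called, with 7.69% of genes raised. The LPS change of Ccr7 after IL-10 minus that without it was -0.27 in macrophages and -0.49 in neutrophils, and for Ccl19 in sDCs it was 0.15. These differences of differences have no test. In mast cells neither gene reached the minimum, with 2.25% of genes raised and 2.79% lowered by IL-10 alone, and 3.75% raised and 5.01% lowered by LPS after IL-10.

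**Figure D3:**
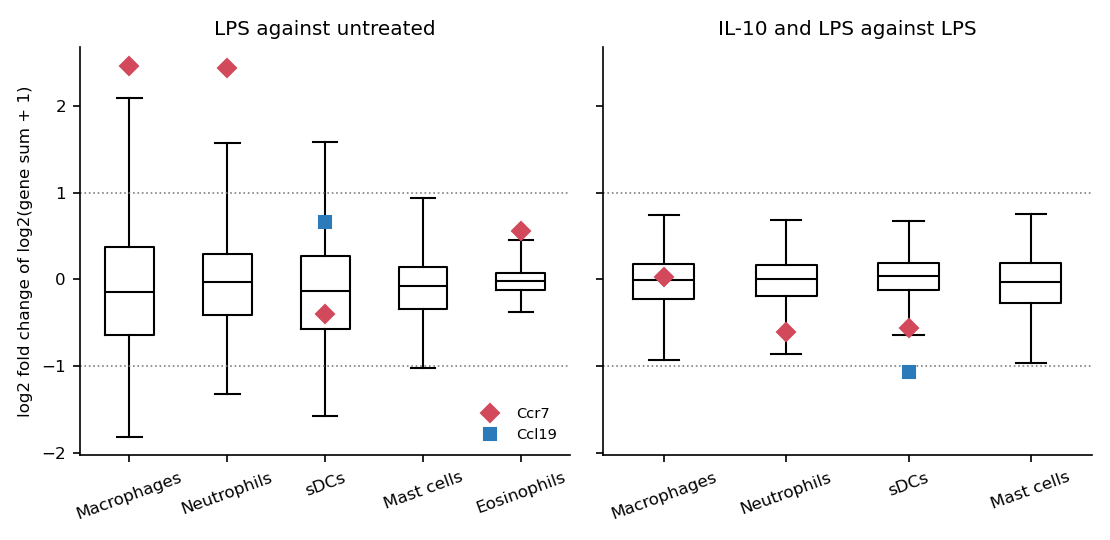
Log2 fold change of Ccr7 (diamonds) and Ccl19 (squares) over all genes kept in each cell type, for LPS against untreated (left) and IL-10 with LPS against LPS (right). Boxes give the quartiles and median of all genes, whiskers the 5th and 95th percentiles and dotted lines 2-fold, and Ccr7 lies above the upper whisker with LPS in macrophages, neutrophils and eosinophils.

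Markers of other cells were examined in the same groups. The B cell markers measured, 5 of a list of 10, summed to 159 in untreated macrophages, 125.5 with IL-10, 400 with LPS and 289.5 with both, and 4 of the 5 rose with LPS there. Pax5, the factor that fixes B cell identity, rose from 2.5 to 44 and Ebf1, another B cell factor, from 12 to 32.5. The marker that did not rise, Cd79b, had values of 101 and 61.5 and was not called. B cells also carry CCR7. In neutrophils the same sum was 6783.5 untreated and 4788 with LPS, and 0 of 5 rose while Ccr7 did. Macrophage markers, 4 of a list of 11, summed in neutrophils to 7588.5 untreated, 8398 with IL-10, 18173 with LPS and 10172.5 with both. Of these 4, 2 rose with LPS, Emr1, which encodes F4/80, from 4346 to 14667.5 and the scavenger receptor Marco from 0 to 241. Both fell with IL-10 and LPS against LPS, to 5157.5 and 14.5. Mrc1 went the other way, falling with LPS from 454.5 to 124.5 and rising to 613 with both. Cd68 was not called in either comparison. Neutrophil markers, 7 of a list of 13, summed to 309239 untreated and 68132.5 with LPS in neutrophils, and 4 of the 7 fell. T cell markers, 6 of a list of 14, summed to between 100.5 and 181.5 in macrophages and between 460 and 523.5 in neutrophils, and 2 of the 3 kept in macrophages rose with LPS, among them Tcf7 from 41 to 111. Naive T cells carry CCR7 as well. Over all genes 12.7% rose with LPS in macrophages, while 8.71% rose and 7.88% fell in neutrophils. Dendritic cell markers, 4 of a list of 13, summed to 13943 in untreated macrophages and 7607 with LPS. In neutrophils they summed to 3609.5 untreated and 4003.5 with LPS. With LPS 1 of the 4, Xcr1, rose in both cell types, and 1 other fell in macrophages, where 14.8% of all genes fell. The part of lymphocytes or dendritic cells, or in neutrophils of macrophages, in these Ccr7 values was not tested.

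In sDCs the B cell sum was between 1971 and 2382.5, and the T cell sum between 17308 and 19277. Most of the T cell sum was Tcf7, and the other 5 markers summed to 3314 untreated, 2545.5 with IL-10, 2108 with LPS and 1949 with both. Of the dendritic cell markers, 4 of a list of 13 were measured, all above 0 in every sDC group. Their sum was 19734.5 untreated, 18954.5 with IL-10, 4748.5 with LPS and 4326.5 with both. In macrophages it was 13943 untreated and 7607 with LPS, the latter above the sDC sum with LPS. With LPS 3 of the 4 fell in sDCs, where 11.5% of all genes fell. Itgax, which encodes CD11c, fell from 4075.5 to 818.5 and Dpp4 from 15226 to 3679, while the cross-presentation receptor Clec9a fell from 243.5 to 49.5. Dpp4 was most of the untreated sDC sum, while Itgax, at 13861, was most of the untreated macrophage sum. Stromal and endothelial markers, 6 of a list of 10, summed to between 571 and 886.5 in sDCs, where Ccl19 was measured, and to between 11577.5 and 15593.5 in macrophages, where Ccl19 was listed at 0 in 3 of 4 groups. Nearly all of the sDC sum was the endothelial marker Pecam1, with 769 untreated and 556 with LPS, which was also 7946.5 in untreated mast cells. Col1a2 and Col3a1, collagens of stromal cells, were listed at 0 in all 4 sDC groups. The part of stromal cells in the Ccl19 values, or of lymphocytes in the Ccr7 values of sDCs, was not tested.

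Of the 6 genes of the CCR7 axis list, which adds the CCL21 genes and the scavenging receptor Ccrl1, Ccr7 and Ccl19 were in the copy of the table used here and the others were not analysed here. That copy ends inside a line, so a list gene called measured is one that it holds, and no reading can be made of the others. Of 25 chemokine receptors, 17 were measured. With LPS, 6 of 15 kept in macrophages rose and 8 fell, with a median of -1.55, where 12.7% of all genes rose and 14.8% fell. In neutrophils 2 of 14 rose and 7 fell, with a median of -0.98, against 8.71% of all genes raised and 7.88% lowered there. Ccr7 and Xcr1, the receptor of cross-presenting dendritic cells, were the pair that rose. In sDCs 0 of 15 rose and 4 fell, with a median of -0.64, where 9.04% of all genes rose and 11.5% fell. Among the sDC genes that fell were Ccr2, Cxcr4, which responds to CXCL12, and Cx3cr1. In mast cells 1 of 10 rose and 0 fell, where 4.76% of all genes rose and 5.46% fell. In eosinophils 1 of 12 rose and 0 fell, where 2.16% of all genes rose and 0.702% fell.

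Receptors that rose with Ccr7 in macrophages were Ccr9, the receptor for CCL25, from 4 to 118, the chemerin receptor Cmklr1 from 1820 to 4403, Cxcr7 from 1 to 10, Cxcr6 from 2.5 to 14 and Xcr1 from 31 to 63.5. Ccr9 and Cmklr1 were not called in neutrophils and Cxcr7 did not reach the minimum there, while Xcr1 rose from 11.5 to 60. With IL-10 and LPS against LPS, Ccr9 and Cxcr7 fell in macrophages, to 46 and 2.5, and Xcr1 fell in neutrophils, to 21.5, while Cmklr1 at 4342.5 and Ccr7 at 218.5 were not called in macrophages. The inflammatory receptor Ccr2 fell with LPS in macrophages and neutrophils, where Ccr7 rose. In macrophages Ccr2 fell with LPS from 965 to 93 and rose with IL-10 and LPS against LPS to 188.

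**Figure D4:**
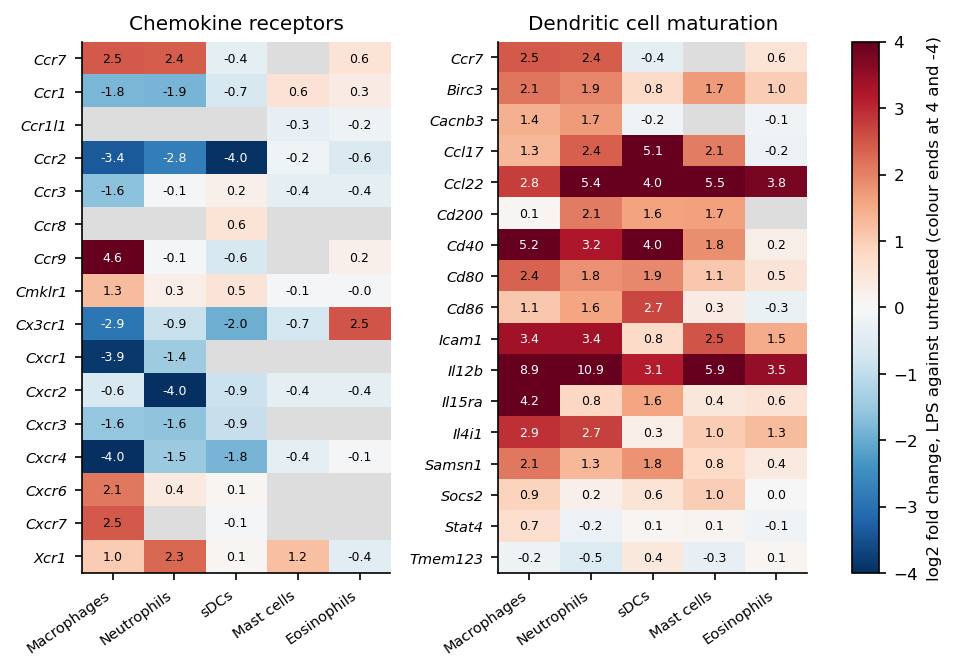
Log2 fold change with LPS for 16 of the measured chemokine receptors (left) and dendritic cell maturation genes (right) in 5 cell types, red for higher and blue for lower with LPS, grey where a gene did not reach 10. Ccr7 rises with most of the maturation list in macrophages and neutrophils (2.5 and 2.4) and is at -0.4 in sDCs, where 9 of the 17 maturation genes rise.

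Of 41 chemokine ligands, 7 were measured, and Ccl19 was compared in sDCs alone. With LPS in sDCs, 2 of 6 rose, Ccl17 from 16 to 597 and Ccl22 from 6040 to 95000, both ligands of CCR4, and Cxcl16 fell from 25019 to 10197.5. The fractalkine gene Cx3cl1 had values of 1121 and 2047.5 and was not called. With IL-10 and LPS against LPS the genes that fell in sDCs were Ccl17, to 108.5, and Ccl19, where 2.08% of all genes fell. With IL-10 alone the same 2 genes fell, Ccl17 from 16 to 7 and Ccl19 from 50 to 21, where 0.826% of all genes fell. In neutrophils all 4 ligands kept rose with LPS, among them Ccl22 from 491 to 20912.5 and Cx3cl1 from 18 to 349, while Ccl19 was listed at 0. In macrophages 3 of 6 rose and 1 fell, in mast cells 4 of 5 rose and in eosinophils 2 of 3. The share of all genes raised at least 2-fold by LPS was 9.04% for sDCs and 8.71% for neutrophils. It was 2.16% for eosinophils, 4.76% for mast cells and 12.7% for macrophages. The share lowered by LPS was 11.5% for sDCs and 14.8% for macrophages.

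The dendritic cell maturation list, which holds Ccr7 itself, had 17 of 28 genes measured. With LPS 13 of 17 rose in macrophages (median log2 change 2.13) and likewise 13 of 17 in neutrophils (median 1.94). The sDCs had 9 of 17 raised (median 1.59), the mast cells 9 of 15 (median 1.06) and the eosinophils 4 of 16 (median 0.46). Over all genes the macrophages had 12.7% raised, the neutrophils 8.71%, the sDCs 9.04%, the mast cells 4.76% and the eosinophils 2.16%. In none of the 5 cell types did a gene of the list fall. In sDCs, where Ccr7 started at the ceiling, Cd40, a costimulatory receptor, rose from 1824.5 to 29391.5, and Il12b, a subunit of IL-12, from 665.5 to 5828. Icam1, an adhesion molecule, had values of 8098 and 13803 in sDCs and was not called, while it rose in macrophages from 1248 to 12941.5 and in neutrophils from 793.5 to 8199.

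With IL-10 and LPS against LPS, 0 maturation genes rose in any cell type. Of 17 kept, 5 fell in macrophages, 5 in neutrophils and 2 in sDCs, and 4 of 15 fell in mast cells. Over all genes 4.58% fell and 3.12% rose in macrophages, and 3.87% fell and 3.06% rose in neutrophils. In sDCs 2.08% fell and 2.61% rose, and in mast cells 4.66% fell and 2.88% rose. Il12b fell in macrophages from 4281.5 to 266, in neutrophils from 13131 to 88.5 and in sDCs from 5828 to 673.5. Cd40 fell in neutrophils from 2718.5 to 1295 and had a value of 25934 in sDCs with both, not called. Ccr7 was among the genes of the list that were not called in macrophages, neutrophils and sDCs.

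Of 29 genes of CCR7 signalling and migration, 16 were measured, and most were not called. With LPS 1 rose and 2 fell in macrophages, where 12.7% of all genes rose and 14.8% fell. In the other cell types 0 rose and 4 fell in neutrophils, 1 rose and 4 fell in sDCs, 0 rose and 2 fell in mast cells, and 0 of 16 were called in eosinophils. Over all genes the neutrophils had 8.71% raised and 7.88% lowered, and the sDCs 9.04% and 11.5%. The mast cells had 4.76% raised and 5.46% lowered, and the eosinophils 2.16% and 0.702%. Adrbk2, a kinase of G protein-coupled receptors, rose in macrophages from 365 to 988 and had values of 20077.5, 17272, 17002.5 and 16322 in sDCs. Grk5, another such kinase, rose in sDCs from 486 to 1080 and fell in neutrophils from 524.5 to 246. St8sia4, the enzyme that adds polysialic acid to CCR7, fell in sDCs from 18533.5 to 4719.5 and in neutrophils from 2413 to 723. The beta-arrestin gene Arrb1, whose product takes part in receptor desensitization, fell in sDCs from 1838 to 546.5 and in neutrophils from 5191.5 to 1745.5.

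The NF-kB list, 14 of 18 genes measured, holds genes of NF-kB signalling, among them the alternative pathway through which lymphoid chemokines such as CCL19 are known to be induced. With LPS 9 of 14 rose and 1 fell in macrophages, 6 and 1 in neutrophils, 3 and 1 in sDCs, 7 and 0 of 14 in mast cells and 2 and 0 of 13 in eosinophils. Over all genes 12.7%, 8.71%, 9.04%, 4.76% and 2.16% rose in these cell types in turn, and 14.8%, 7.88%, 11.5%, 5.46% and 0.702% fell. In sDCs Lta, the lymphotoxin alpha gene, rose from 56.5 to 627.5 and Nfkb1 from 6302.5 to 12892.5. Map3k14, a kinase of the alternative pathway, fell there from 12263 to 3478. Nfkb2, another gene of that pathway, had values of 11598.5 and 14609 and was not called. Lta fell with IL-10 and LPS against LPS in sDCs, to 175, and also in macrophages, neutrophils and mast cells. With IL-10 alone in sDCs it had a value of 60 and was not called.

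The genes most like Ccr7 over the 18 groups, by Pearson correlation of log2(value + 1) among 6246 genes, were Tcf7 (r = 0.98), Stap2 (0.98), Adrbk2 (0.98), Slc4a8 (0.97) and Chst10 (0.97). Tcf7, a transcription factor of T cells, had values from 14900.5 to 15963 in sDCs and up to 194 in any other group. Those most like Ccl19 were Grpr (0.99), Cdh22 (0.99), Apol7a (0.98), Synj1 (0.97) and Apol10b (0.97). Grpr, a peptide receptor gene, had values from 294.5 to 453 in sDCs and up to 6.5 elsewhere. Between Ccr7 and Ccl19 r was 0.88. The groups of a cell type share their source of cells and all 18 share 1 normalization, and these genes were high in the 4 sDC groups, so the correlations describe a common sDC pattern.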

How the data were processed

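Reads of 36 libraries were aligned by the authors to Ensembl v67 (mm9) transcripts, with RSEM 1.2.1 and Bowtie 0.12.9 per the submitters' notes, and tag counts were normalized for GC content with EDASeq. The deposited values are of the unit score: 1 mean of 2 replicates per transcript and group, in multiples of 0.5, with the same maximum in all 18 columns. The filter behind the table was not given in the sources used here. Of the lines, 17015 were complete and the last was broken off, so the copy may not hold the whole table, and 22 (0.129%) without a gene name were left out.

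Groups followed the labels. Transcripts were summed per gene, log2(value + 1) was compared over all genes of a cell type that reached 10, and 2-fold was called. No test was possible on 1 mean per group. The members and gene lists were chosen with earlier results of these data known. Text genes were the members, up to 4 genes per list raised with Ccr7 by LPS in the most cell types, and the 5 genes most correlated with each member. Others, named where a count was small or to describe a list, were chosen after their values were seen. Alternatives were the pseudocount, the filter, the threshold, centring on the median and the highest transcript alone. Python 3.11.15, numpy 2.4.6, pandas 2.3.3, scipy 1.17.1 and matplotlib 3.10.9 were used, and the steps were tested on simulated data. Sequences and motif shares came from RefSeq promoters of GRCm38.p6, and transcripts from GENCODE on NCBIM37. Some genes of the lists are counted but not reported here by name.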

Additional observations from a re-analysis of the deposited data

Results flagged for a closer look

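The difference of Ccr7 between LPS and untreated cells was above 0 in some cell types and below 0 in sDCs. In macrophages it was 2.46 and in sDCs -0.40 on the log2 scale, a difference of 2.87, and in neutrophils it was 2.43, a difference from sDCs of 2.83. The opposite signs were present without IL-10 and again in cells that had IL-10 first, where the changes were 2.19 in macrophages, 1.94 in neutrophils and -0.97 in sDCs. The difference was not tested, since the table has 1 mean per group, and in sDCs the starting value was at the ceiling of the scale, where no rise can appear.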

How the results depend on the processing

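No paired analysis was possible because the table holds 1 mean per group, and for the same reason leaving out each replicate was not run. Of 118 values of Ccr7 and Ccl19 under 7 alternatives, 112 kept their direction and their side of the threshold, and 0 changed direction. With a pseudocount of 10, the fall of Ccl19 in sDCs was no longer called, at -0.91 for IL-10 with LPS against LPS and -0.95 for IL-10 against untreated, because a larger pseudocount shrinks changes of low values. With a threshold of 1.5-fold, 4 more were called: Ccl19 in sDCs with LPS at 0.66 and with IL-10 and LPS against IL-10 at 0.81, Ccr7 in neutrophils with IL-10 and LPS against LPS at -0.61, and Ccr7 in sDCs with IL-10 and LPS against IL-10 at -0.97. Subtracting the median of all genes changed no call of either gene. For other named genes 1690 of 1766 values kept their call, 19 lost it, 43 gained it, 14 moved and 0 reversed. Of 34 counts of genes called, the number beyond 1.5 times the reported count was 34 with the 1.5-fold threshold, 12 with a pseudocount of 10, 11 with a minimum of 50, 9 with no filter, 7 with the highest transcript alone, and 0 with a pseudocount of 0.5 or with centring. The ceiling limits what can be seen of Ccr7 in sDCs under every one of these settings.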

Other observations

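Some maturation genes were, like Ccr7, already high in untreated sDCs and were not called there with LPS, while they rose in macrophages and neutrophils. These genes were picked after their values were seen. Il4i1, an amino acid oxidase of activated antigen-presenting cells, had values of 64796.5 untreated, 71337.5 with IL-10, 78680 with LPS and 70570.5 with both in sDCs, and rose with LPS in macrophages from 95 to 725 and in neutrophils from 524.5 to 3508. Cacnb3, a calcium channel subunit, had values between 21933 and 24373 in the 4 sDC groups, and rose in macrophages from 128 to 346.5 and in neutrophils from 68 to 225. Unlike Ccr7, both lay below the ceiling of the scale in sDCs. The highest Il4i1 transcript there had 52804 untreated and with both, and 59713 with IL-10 and with LPS. Ccl22 with both also had 52804, so steps of the scale may limit the Il4i1 differences as well. Samsn1, an adaptor protein, rose in sDCs with LPS from 53083 to a summed value of 185681.5. A Samsn1 transcript was at the ceiling of 185338 there, so this rise is a lower limit on this scale. Cd80 and Cd86, costimulatory ligands, rose in sDCs from 2102 to 7933.5 and from 2344 to 14843.5.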
